A study of Mus musculus with 13 samples.

Results

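The genes described here are 10 components and targets of a pair of stress-sensing pathways, the aryl hydrocarbon receptor (AhR) pathway and the Nrf2 pathway: Ahr, Ahrr, Tiparp, Nqo1, Nfe2l2, Keap1, Hmox1, Gclc, Gclm and Txnrd1. Their members on the array were all probe sets whose single gene symbol in the platform annotation is one of these, which gave 13 of 45037 probe sets and 9 of the 10 genes. For Keap1 the annotation used here lists no such probe set, and it was not analysed here. Expression was measured on 13 arrays of total RNA from squamous cell carcinomas of mouse skin, 7 from G9a cKO (conditional knockout) mice and 6 from G9a WT mice. The mice of both groups were treated on shaved back skin with DMBA, a carcinogen, and TPA, which promotes tumours, from 8 weeks of age, weekly for 6 weeks (200 µl, DMBA at 0.25 mg/ml and TPA at 0.02 mg/ml in acetone), and TPA was then continued for up to 20 weeks. G9a is a histone H3 lysine 9 methyltransferase encoded by Ehmt2. The labels name neither the promoter that drove its deletion nor the strain, and do not say that each tumour came from its own mouse, so p-values concern the spread between these arrays and this spread may be technical. The question set by the design is how expression differs between cKO and WT tumours.

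AhR is a ligand-activated transcription factor that waits in the cytoplasm with chaperones, enters the nucleus when bound by aromatic hydrocarbons such as DMBA, pairs with ARNT and induces cytochrome P450 genes of the CYP1 family, Tiparp, Nqo1 and its own repressor Ahrr. Nrf2, the product of Nfe2l2, is kept low by KEAP1, which presents it to a CUL3 ubiquitin ligase. When electrophiles or oxidants disable KEAP1, Nrf2 pairs with small MAF proteins on antioxidant response elements and induces enzymes of glutathione, thioredoxin, haem and quinone metabolism. In skin both pathways respond to the chemicals used for tumour induction: AhR targets activate DMBA to its mutagenic form, and Nrf2 targets detoxify reactive products.

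The binding motifs of both factors were searched in the 250 bases before the annotated start (RefSeq, build GRCm38.p6), for which 7 of the 10 genes matched an entry. The antioxidant response element core was TGACNNNGC, read on both strands. The xenobiotic response element core bound by AhR and ARNT was GCGTG, also read on both strands. Of 32851 promoter windows of this length, 10.2% held the first and 28.2% the second. Of the genes that differed between the groups, Tiparp, Nfe2l2 and Txnrd1 had an entry, and they are shown with Gclm, an Nrf2 target with motifs of both kinds that did not pass the test. Capitals mark every match of either motif, and no matches overlapped. The windows are chr3:65528197-65528446 (plus strand) for Tiparp, chr2:75704664-75704913 (minus strand) for Nfe2l2, chr10:82858956-82859205 (plus strand, the window of 3 for this gene with an antioxidant response element core) for Txnrd1, and chr3:122245307-122245556 (plus strand) for Gclm.
Tiparp: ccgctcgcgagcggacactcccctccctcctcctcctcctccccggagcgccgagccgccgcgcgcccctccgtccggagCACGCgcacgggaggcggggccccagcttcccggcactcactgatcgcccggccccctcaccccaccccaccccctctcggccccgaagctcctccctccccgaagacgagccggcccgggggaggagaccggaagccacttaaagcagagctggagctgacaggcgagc
Nfe2l2: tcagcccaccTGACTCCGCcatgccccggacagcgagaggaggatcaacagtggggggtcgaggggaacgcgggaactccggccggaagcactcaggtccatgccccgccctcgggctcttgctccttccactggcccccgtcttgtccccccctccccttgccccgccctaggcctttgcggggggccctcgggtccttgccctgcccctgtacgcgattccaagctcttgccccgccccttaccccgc
Txnrd1: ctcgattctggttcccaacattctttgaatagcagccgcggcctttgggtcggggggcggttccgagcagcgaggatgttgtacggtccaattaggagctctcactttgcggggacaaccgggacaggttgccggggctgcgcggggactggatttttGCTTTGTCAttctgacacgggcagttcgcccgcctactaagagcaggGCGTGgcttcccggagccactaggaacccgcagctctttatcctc
Gclm: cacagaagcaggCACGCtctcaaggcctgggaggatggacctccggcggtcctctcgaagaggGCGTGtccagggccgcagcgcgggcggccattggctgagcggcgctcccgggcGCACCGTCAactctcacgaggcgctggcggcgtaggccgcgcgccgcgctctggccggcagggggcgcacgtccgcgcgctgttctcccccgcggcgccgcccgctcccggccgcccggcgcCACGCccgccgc

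Tiparp held 1 xenobiotic response element core, starting 170 bases before the start site. Nfe2l2 held 1 antioxidant response element core 240 bases before its start and no match of the other motif. The Txnrd1 window held an antioxidant core at 92 bases and a xenobiotic core at 45 bases before the start. Gclm held an antioxidant core at 134 bases and xenobiotic cores at 238, 187 and 12 bases before the start. In the Ahrr window there were 3 xenobiotic cores, in the Keap1 window 1, and in the Nqo1 window neither motif. A match describes letters in this window and not a bound site.

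Array medians lay between 5.12 and 5.14 in cKO and between 5.09 and 5.14 in WT tumours (log2), while the SD over probe sets was 1.83 to 1.88 in cKO and 1.91 to 1.94 in WT. The targeted gene Ehmt2 has 2 probe sets. Of these, 1460692_PM_at lay between 5.87 and 6.12 in cKO and between 8.03 and 8.61 in WT tumours (means 6.01 ± 0.10 and 8.33 ± 0.19, SD, n = 7 and 6). The difference was -2.33 (limma adjusted p = 1.3e-09). Its two-sided exact permutation p of 0.00117 is the smallest that 7 and 6 arrays can give. That test treats all arrays as exchangeable, although neighbouring arrays mirror each other, as described below. The probe set 1426888_PM_at read 7.42 ± 0.04 in cKO and 7.29 ± 0.19 in WT tumours, a difference of 0.13 (limma adjusted p = 0.163). It passed without WT replicate 9 (0.17, adjusted p = 0.0466) and after quantile normalization (0.24, adjusted p = 0.0138). The labels do not say which exons were deleted, and a probe set that reads other exons is no check of the labels. In each group, arrays that follow one another in the deposit mirror each other around the group mean (correlation of deviations -0.953 to -0.881 in 6 pairs). Every difference below was therefore fitted with limma without and with a term for each such pair. The term gives each pair its own mean, so its p-values rest on the spread within pairs and not on the spread between them. The words rose and fell are kept for genes with an adjusted p under 0.05 in both fits. The 23 nonspecific control probe sets, with an upper quartile of 4.29 that served as the background level, differed between cKO and WT arrays by -0.307 to 0.082, and 18 hybridisation controls by 0.0573 to 0.493.

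Ahr was higher in cKO tumours, whereas Tiparp, Nfe2l2 and Txnrd1 were lower, and Hmox1, Gclm, Gclc, Nqo1 and Ahrr did not pass the test. Of the 13 probe sets, 1 was called higher and 5 were called lower in cKO tumours at a limma adjusted p under 0.05. Among all probe sets, 24.4% were called higher and 23.4% lower (47.9% either way), so the number of calls among the members was close to the background. Adding the pair term left 1 call higher and 4 lower, beside 13.9% and 13.1% of all probe sets (27.0% either way). Counted by gene, each read by its brightest probe set, 1 of 9 genes was called higher and 3 lower, beside 26.1% and 20.4% of all genes (46.5% either way). Of the 13 probe sets, 5 were called with a change of at least 1.5-fold, 1 higher and 4 lower, and 3 of these 4 belong to Tiparp, while 6.5% of all probe sets were (2.13% higher and 4.37% lower). The groups did not overlap for 3 of the 13 probe sets and for 24.2% of all. The median difference of the 13 probe sets was -0.34, and that of all probe sets 0.00037 (log2).

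**Figure D1:**
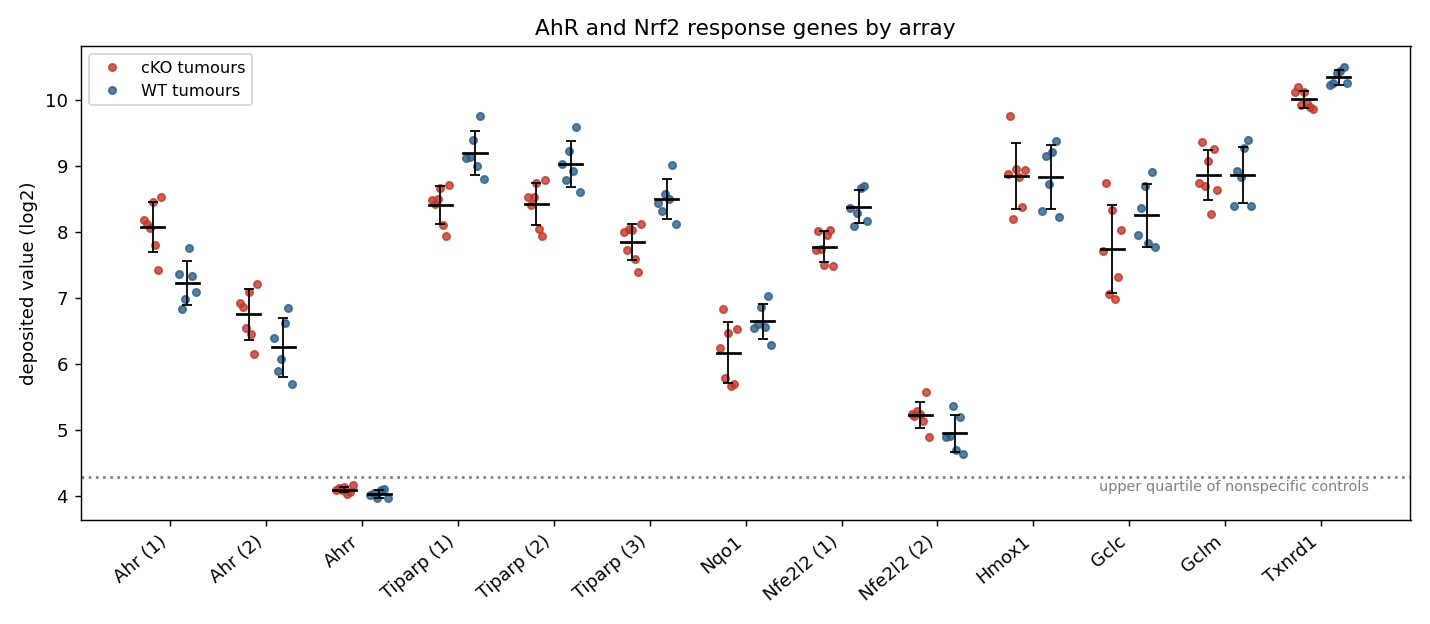
Deposited log2 values of the 13 probe sets on each array, with cKO tumours (red, n = 7) left of WT tumours (blue, n = 6); horizontal bars are group means, whiskers the SD, and the dotted line is the background level of 4.29. The cKO points of Ahr (1) lie mostly above the WT points, those of Tiparp (1), Nfe2l2 (1) and Txnrd1 lie all below them, and Ahrr stays under the background level.

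Ahr, the receptor itself, was measured by a pair of probe sets designed on the same sequence record. On 1450695_PM_at, values ranged from 7.42 to 8.54 with a median of 8.12 in cKO tumours, and from 6.84 to 7.77 with a median of 7.22 in WT tumours. Thus 6 of 7 cKO tumours lay above the highest WT tumour, and only cKO replicate 8, the lowest of its group, fell within the WT range. The means were 8.09 ± 0.38 in cKO and 7.23 ± 0.33 in WT tumours (SD, n = 7 and 6), so Ahr rose by 0.85 (SE 0.19), or 1.80-fold (limma adjusted p = 0.00235, and 0.030 with the pair term). All probe sets in the same decile of level had a median difference of -0.12, and 12.1% of them were called higher. On 1422631_PM_at the cKO tumours lay between 6.15 and 7.22 and the WT tumours between 5.70 and 6.86, with 4 of 7 cKO tumours above all WT tumours. This probe set differed in the same direction by 0.50 (95% interval 0.03 to 0.96) and did not pass (limma adjusted p = 0.0726). It passed without WT replicate 8 (0.61, adjusted p = 0.0289), without cKO replicate 8 (0.60, adjusted p = 0.0319), after quantile normalization (0.55, adjusted p = 0.0485) and with array weights, by which limma counts noisier arrays less (0.69, adjusted p = 0.0036).

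Ahrr encodes the AhR repressor, which competes for ARNT and is itself an AhR target. Its probe set read 4.03 to 4.17 in cKO and 3.97 to 4.11 in WT tumours, below the background level of 4.29 on all 13 arrays. No fold is given for it, and its measured difference of 0.07 did not pass (limma adjusted p = 0.104), except with array weights (adjusted p = 0.0257).

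Tiparp, a mono-ADP-ribosyltransferase gene that AhR induces and whose product dampens AhR activity, was lower in cKO tumours on all 3 of its probe sets, which were designed on the same sequence record and so are not independent readings. On 1452161_PM_at the cKO tumours ranged from 7.94 to 8.72 (median 8.49) and the WT tumours from 8.80 to 9.76 (median 9.13). The groups did not overlap on this probe set, although the highest cKO tumour, replicate 9, and the lowest WT tumour, also replicate 9, lay close together. Tiparp fell by 0.80 (SE 0.16), or 1.74-fold (limma adjusted p = 0.00139, and 0.0245 with the pair term). On 1426721_PM_s_at it averaged 7.85 ± 0.27 in cKO and 8.50 ± 0.30 in WT tumours (SD, n = 7 and 6), a difference of -0.65 (limma adjusted p = 0.00329, and 0.0355 with the pair term). On 1452160_PM_at it averaged 8.43 ± 0.32 in cKO and 9.03 ± 0.35 in WT tumours, a difference of -0.60 that passed only without the pair term (limma adjusted p = 0.0118, and 0.0741 with it). For comparison, the level deciles of these probe sets had medians of -0.13 and -0.12, with 35.9% and 31.5% called lower. In the order given, the 3 differences were -0.64, -0.50 and -0.44 after quantile normalization, and the pair term then gave limma adjusted p of 0.0506, 0.080 and 0.165.

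Nqo1 encodes a quinone reductase that both AhR and Nrf2 induce. Its values ranged from 5.67 to 6.83 (median 6.24) in cKO tumours and from 6.29 to 7.03 (median 6.58) in WT tumours. In the cKO group 4 of 7 tumours lay below every WT tumour, while cKO replicate 2 lay among the higher WT tumours, so the spread was wider in cKO (SD 0.46 in cKO and 0.26 in WT tumours). The difference of -0.47 (95% interval -0.90 to -0.04) did not pass (limma adjusted p = 0.0665, and 0.193 with the pair term). It passed without cKO replicate 2 (-0.58, adjusted p = 0.0192), without WT replicate 9 (-0.55, adjusted p = 0.0488) and with array weights (-0.41, adjusted p = 0.0483).

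Nfe2l2, the gene of Nrf2 itself, was lower in cKO tumours on its brighter probe set. On 1416543_PM_at the cKO tumours ranged from 7.49 to 8.03 (median 7.75) and the WT tumours from 8.10 to 8.70 (median 8.33), with no overlap. Nfe2l2 averaged 7.78 ± 0.23 in cKO and 8.38 ± 0.25 in WT tumours (SD, n = 7 and 6) and fell by 0.60 (SE 0.13), or 1.52-fold (limma adjusted p = 0.00171, and 0.0223 with the pair term). Its level decile had a median difference of -0.12, with 31.5% called lower. After quantile normalization the difference was -0.45 (limma adjusted p = 0.0118, and 0.0698 with the pair term). The dimmer probe set 1457117_PM_at, designed on another sequence record, lay between 4.91 and 5.58 in cKO and between 4.64 and 5.37 in WT tumours. Its difference pointed the other way, 0.28 (95% interval 0.01 to 0.55), and did not pass (limma adjusted p = 0.0854). It passed without WT replicate 6 (0.36, adjusted p = 0.0229), without cKO replicate 9 (0.33, adjusted p = 0.043) and with array weights (0.27, adjusted p = 0.0369). The annotation does not say which transcripts each of these probe sets reads.

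**Figure D2:**
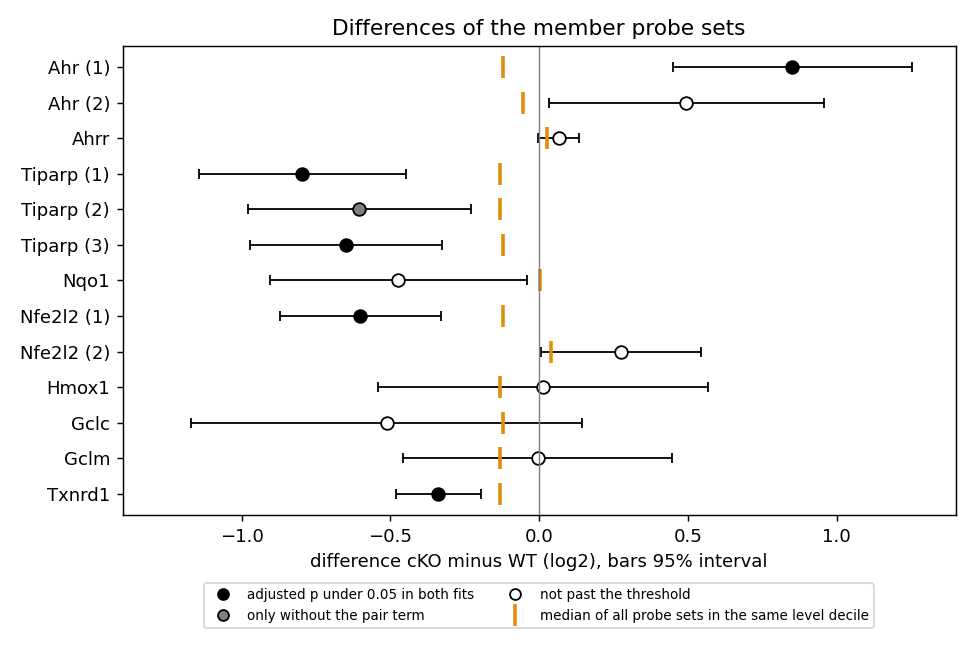
Difference between cKO and WT tumours (log2, points) with the 95% interval of the fit without the pair term (bars) for each of the 13 probe sets; orange ticks are the median difference of all probe sets in the same decile of level. Ahr (1) at 0.85 lies to the right, and Tiparp (1) at -0.80, Nfe2l2 (1) at -0.60 and Txnrd1 at -0.34 lie to the left of their ticks, with filled points where both fits passed.

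Among the Nrf2 targets, Txnrd1, the cytosolic thioredoxin reductase, was lower in cKO tumours. Values ranged from 9.87 to 10.20 (median 9.95) in cKO tumours and from 10.23 to 10.50 (median 10.34) in WT tumours, without overlap. Txnrd1 averaged 10.01 ± 0.13 in cKO and 10.35 ± 0.11 in WT tumours (SD, n = 7 and 6) and fell by 0.34 (SE 0.07), or 1.26-fold (limma adjusted p = 0.00109, and 0.00896 with the pair term). This size is near the -0.307 that a nonspecific control reached, and the decile of the brightest probe sets, to which Txnrd1 belongs, had a median of -0.13 with 35.9% called lower. After quantile normalization the difference was -0.19 (limma adjusted p = 0.0249, and 0.0746 with the pair term), a value that moved by over 1.5 times.

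Gclc and Gclm encode the catalytic and the modifier subunit of glutamate-cysteine ligase, the rate-limiting enzyme of glutathione synthesis. Gclc ranged from 7.00 to 8.75 (median 7.72) in cKO tumours and from 7.78 to 8.91 (median 8.16) in WT tumours, with 4 of 7 cKO tumours below every WT tumour and the others inside the WT range. Its difference of -0.51 had a 95% interval of -1.17 to 0.14 and did not pass (limma adjusted p = 0.181). Gclm ranged from 8.28 to 9.36 (median 8.74) in cKO tumours and from 8.39 to 9.39 (median 8.88) in WT tumours, so the groups covered nearly the same span. Its difference was -0.0050 with an interval of -0.46 to 0.45 (limma adjusted p = 0.986), and its sign turned after quantile normalization (0.16, adjusted p = 0.572).

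Hmox1, the inducible haem oxygenase that releases iron and biliverdin from haem, had overlapping groups as well. It ranged from 8.21 to 9.77 (median 8.88) in cKO tumours and from 8.23 to 9.39 (median 8.94) in WT tumours. The highest and the lowest value of all 13 arrays were both from cKO tumours, replicates 2 and 3. The difference was 0.01 with a 95% interval of -0.54 to 0.57 (limma adjusted p = 0.970). Changes within this interval are not excluded by these arrays.

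Within the groups, the members varied in more than one pattern. Nqo1 and Gclc were high together in cKO replicates 2, 5 and 9 and low together in cKO replicates 3, 6 and 8. In cKO replicate 2 Gclc stood 1.01 above its group mean, Hmox1 0.91 and Nqo1 0.66. In cKO replicate 3, which mirrors replicate 2 in the deposit, they stood at -0.68, -0.65 and -0.39. By the correlation of deviations from the group means over 13 arrays, the probe sets most like Nqo1 among 16074 candidates of at least median level were those of Prpf4b (0.97), Rpl39 (0.96) and Gclc (0.95). Tiparp and Hmox1 correlated with Nqo1 at 0.74 and 0.75, and Nfe2l2 at -0.07. Those most like the brighter Ahr probe set were Anln (0.94), Ilf2 (0.93) and Elf3 (0.92), and Nqo1 correlated with Ahr at 0.50. Those most like Nfe2l2 were Tmx3 (0.95), Cisd1 (0.93) and Rbm14 (0.93), and Gclm correlated with it at 0.48. These values are descriptions, since mirrored arrays are not independent and any gene that varies between the arrays of a pair takes part in them.

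**Figure D3:**
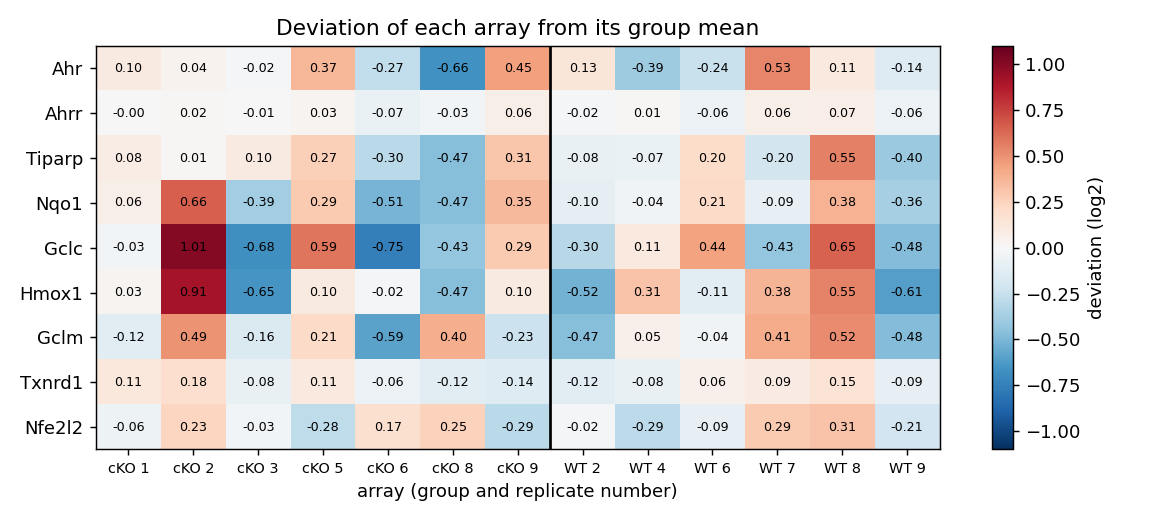
Deviation of each array from its group mean (log2, colour and numbers) for the brightest probe set of each of 9 genes, with cKO arrays left of WT arrays. Gclc, Nqo1 and Hmox1 are high in cKO replicate 2 (1.01, 0.66 and 0.91) and low in cKO replicate 3, while Nfe2l2 follows another pattern.

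Other genes of both pathways were read in 7 lists of 68 genes, 60 of them measured, each by its brightest probe set. Together, 8 were called higher and 15 lower in cKO tumours (13.3% and 25.0%), beside 26.1% and 20.4% of all genes. The median difference was -0.10, and that of all genes 0.02. With the pair term 3 of the 60 were called higher and 11 lower, beside 15.2% and 11% of all genes. The lists were chosen with results of these data known, so these counts are descriptions.

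Among the AhR partners and chaperones, 3 of 4 measured genes were called lower and none higher, with a median of -0.24. Arnt2, a relative of the AhR partner ARNT, read 4.44 ± 0.08 in cKO and 4.71 ± 0.09 in WT tumours (SD, n = 7 and 6) and fell by 0.27 (limma adjusted p = 0.000471). Arnt itself fell by 0.21, with 7.99 ± 0.08 in cKO and 8.20 ± 0.08 in WT tumours (limma adjusted p = 0.00151), and its 4 other probe sets differed by -0.45 to 0.00003. Ptges3, the p23 cochaperone, fell by 0.15 (limma adjusted p = 0.000692). All 3 differences were smaller than 0.307, the largest size among nonspecific controls. After quantile normalization Arnt and Ptges3 differed by -0.07 and -0.03 and did not pass (adjusted p = 0.215 and 0.353), so 1 gene of the list was then lower.

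The CYP1 genes are the classical readout of AhR activity. Cyp1a1 read 4.02 to 4.11 in cKO and 4.24 to 4.30 in WT tumours, and Cyp1a2 read 4.16 to 4.31 in cKO and 3.97 to 4.05 in WT tumours. Their means lay below the background level of 4.29 in both groups, so no fold is given, although their measured differences of -0.21 and 0.20 passed the test (limma adjusted p = 2.24e-05 and 0.000103). Cyp1b1, the CYP1 enzyme best known for activating DMBA in mouse skin, ranged from 5.56 to 7.74 in cKO and from 5.17 to 7.41 in WT tumours, and its difference of 0.59 did not pass (limma adjusted p = 0.307). Serpinb2, a serine protease inhibitor gene, ranged from 7.13 to 9.67 in cKO and from 8.53 to 9.32 in WT tumours, a difference of -0.70 (limma adjusted p = 0.213). Of 6 measured AhR targets, 1 was called higher and 1 lower, and these were Cyp1a2 and Cyp1a1.

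Of the genes for Nrf2 turnover and its DNA partners, 4 of 11 were called lower and none higher, with a median of -0.11. Bach1, a repressor that competes with Nrf2 for antioxidant response elements, averaged 8.18 ± 0.33 in cKO and 9.11 ± 0.33 in WT tumours (SD, n = 7 and 6) and fell by 0.93, or 1.91-fold (limma adjusted p = 0.00076). Its groups did not overlap, and its other probe set differed by -0.68. Maff, a small MAF partner, averaged 8.05 ± 0.18 in cKO and 8.83 ± 0.35 in WT tumours and fell by 0.78, or 1.72-fold (limma adjusted p = 0.000681). Rbx1, the RING subunit of the CUL3 ligase, fell by 0.24 (limma adjusted p = 0.000214), with 11.22 ± 0.06 in cKO and 11.46 ± 0.07 in WT tumours. That fall was smaller than the -0.307 that a nonspecific control reached. Cul3, the ligase scaffold, named outside the rule after its value was seen, fell by 0.47 (limma adjusted p = 0.0038). Bach1 and Maff also passed with the pair term after quantile normalization (adjusted p = 0.0322 and 0.0371). Rbx1 (-0.15, adjusted p = 0.0787) and Cul3 did not. The list's median turned to 0.04 after quantile normalization.

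Of 11 Nrf2 targets of glutathione and thioredoxin metabolism, 1 was called higher and 3 lower (9.09% and 27.3%), beside 26.1% and 20.4% of all genes. With the pair term the counts were 0 and 1, beside 15.2% and 11% of all genes. The median was -0.03 and turned to 0.14 after quantile normalization. Txn1, the thioredoxin that Txnrd1 reduces, averaged 11.54 ± 0.06 in cKO and 11.76 ± 0.07 in WT tumours (SD, n = 7 and 6) and fell by 0.22 (limma adjusted p = 0.000438), and its groups did not overlap. That fall was smaller than the -0.307 that a nonspecific control reached. After quantile normalization the difference was -0.15 (limma adjusted p = 0.00327, and 0.0531 with the pair term). Gsr, glutathione reductase, ranged from 7.47 to 9.14 in cKO and from 8.52 to 10.27 in WT tumours. Its difference of -1.22, or 2.33-fold, passed only without the pair term (limma adjusted p = 0.0168, and 0.0867 with it), and its other probe set differed by -0.39. Slc7a11, the cystine transporter, read 3.63 to 3.92 in cKO and 3.84 to 4.27 in WT tumours, below the background level on all 13 arrays. It passed without the pair term and not with it (limma adjusted p = 0.0102 and 0.0651). After quantile normalization it also passed with the pair term (limma adjusted p = 0.0474). The gene called higher was Gpx4, a phospholipid hydroperoxide peroxidase named outside the rule after its value was seen, with a difference of 0.15 (limma adjusted p = 0.021, and 0.118 with the pair term).

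Of 5 measured genes that supply NADPH, 2 were called lower and none higher, with a median of -0.32. Tkt, transketolase of the pentose phosphate pathway, averaged 10.33 ± 0.08 in cKO and 10.90 ± 0.19 in WT tumours (SD, n = 7 and 6) and fell by 0.57, or 1.48-fold (limma adjusted p = 7.30e-05), while its other probe set differed by 0.15. Pgd, 6-phosphogluconate dehydrogenase, differed by -0.50 and passed only without the pair term (limma adjusted p = 0.016, and 0.0863 with it), and not after quantile normalization (-0.33, adjusted p = 0.0832). Idh1, the cytosolic isocitrate dehydrogenase, differed by -0.21 (limma adjusted p = 0.160).

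Of 8 haem and iron genes, 3 were called higher (2 with the pair term), none was called lower and 5 did not pass, with a median of -0.0076 that turned to 0.08 after quantile normalization. Hmox2, the constitutive haem oxygenase, averaged 8.51 ± 0.10 in cKO and 8.15 ± 0.21 in WT tumours (SD, n = 7 and 6) and rose by 0.36 (limma adjusted p = 0.0038). Abcb6, a porphyrin transporter gene, averaged 6.81 ± 0.12 in cKO and 6.53 ± 0.09 in WT tumours and rose by 0.28 (limma adjusted p = 0.00187). The rises of Hmox2 and Abcb6 lay within the range of the hybridisation controls, which were higher in cKO arrays by 0.0573 to 0.493. Blvrb, biliverdin reductase B, differed by 0.38 and passed only without the pair term (limma adjusted p = 0.0345, and 0.140 with it). Leaving out single arrays ended the Blvrb call in 7 of 13 cases, with adjusted p up to 0.0787. The ferritin chain genes Ftl1 and Fth1, outside the rule for named genes, differed by -0.10 and 0.02 and did not pass (limma adjusted p = 0.522 and 0.507).

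Of 15 detoxification and other targets, 3 were called higher and 2 lower (0 higher and 1 lower with the pair term), with a median of -0.00084 that turned to 0.10 after quantile normalization. Ugdh, which makes UDP-glucuronate for conjugation reactions, ranged from 7.18 to 7.53 in cKO and from 8.02 to 8.48 in WT tumours and fell by 0.86, or 1.82-fold (limma adjusted p = 2.68e-06, and 0.00129 with the pair term). Its groups were well apart, and it also passed after quantile normalization (-0.72, adjusted p = 7.55e-06). Cbr3, a carbonyl reductase, differed by -0.31 and passed only without the pair term (limma adjusted p = 0.00821, and 0.0634 with it). Abcc2, a conjugate export pump, lay below the background level on all 13 arrays, and its measured difference of 0.14 has no fold and passed only without the pair term (limma adjusted p = 0.00398, and 0.0564 with it). Aox1, an aldehyde oxidase, and Osgin1, an oxidative stress-induced growth inhibitor, were named outside the rule after their values were seen. They differed by 0.37 and 0.20 (limma adjusted p = 0.0249 and 0.0166) and did not pass with the pair term (0.118 and 0.0913), and Aox1 did not pass in 1 of the 13 fits that left out an array.

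**Figure D4:**
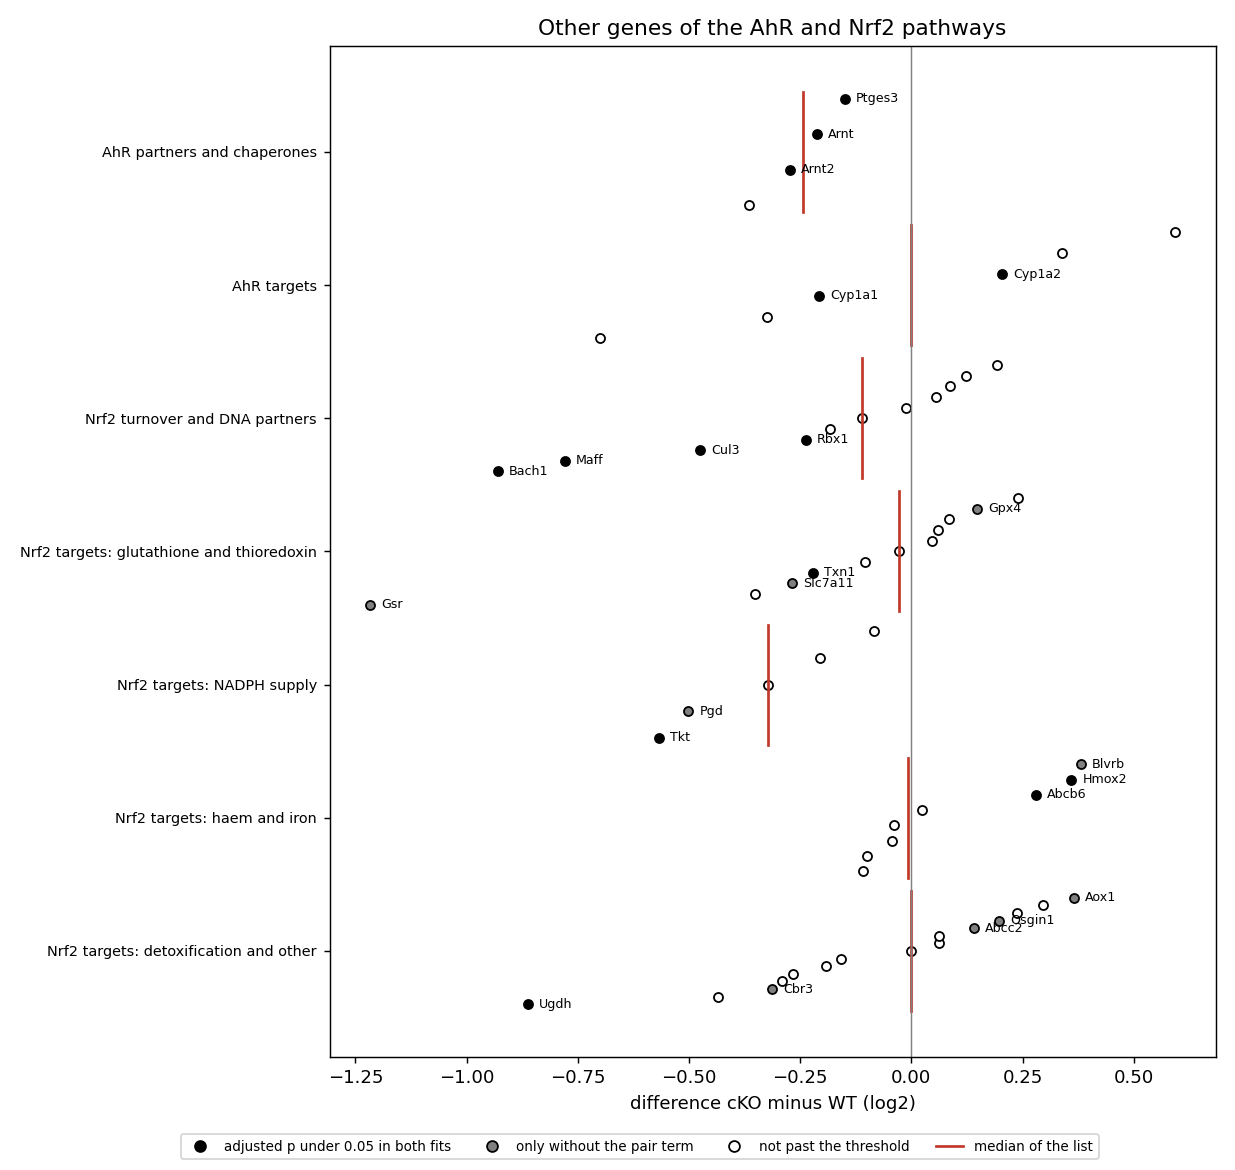
Difference between cKO and WT tumours (log2) of 60 genes in 7 pathway lists, 1 point a gene by its brightest probe set, with the median of each list as a red line. Bach1 at -0.93, Ugdh at -0.86, Maff at -0.78 and Tkt at -0.57 are the lowest among the filled points that passed both fits, and Hmox2 at 0.36 is the highest.

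Some markers of other cell types differed between the same groups, and their part in the results above was not tested. Among all genes, 26.1% were called higher and 20.4% lower, and 15.2% and 11% with the pair term. In whole tumours, a different share of cells of a type and a different RNA level per cell cannot be told apart. Keratinocyte markers were abundant in both groups: 1 of 10 was called higher and 3 lower, and their summed level was 25280 to 33056 in cKO and 28686 to 33036 in WT tumours (linear units). Of 12 fibroblast markers, 7 were called higher, none lower and 5 did not pass, with sums of 2708 to 4491 in cKO and 1754 to 3362 in WT tumours. Fbln1, the brightest of them in both groups (means 10.68 and 10.51), differed by 0.17 and weighs most in these sums. Col1a1 and Col3a1 rose by 2.93 and 3.22, both without overlap, and Postn differed by -0.24 and did not pass. In both groups, 3 of the 12 had means below the background level. Of 10 endothelial markers, 7 were called higher, none lower and 3 did not pass, with sums of 631 to 1274 in cKO and 324 to 826 in WT tumours. Cd34, the brightest of them in both groups (means 7.88 and 7.53), differed by 0.35 and did not pass. Pecam1 and Emcn rose by 1.76 and 1.75, both without overlap. In both groups, 1 of the 10 had means below the background level. Of 12 macrophage markers, 4 were called higher and 2 lower, with sums of 331 to 481 in cKO and 324 to 408 in WT tumours. In both groups, 2 of the 12 had means below the background level. Adgre1, a defining marker, was 1 of these, with means of 4.28 in cKO and 3.93 in WT tumours. Its measured difference of 0.35 passed both fits (limma adjusted p = 2.33e-05, and 0.00418 with the pair term). Of 7 neutrophil markers, 3 were called higher and 1 lower, with sums of 267 to 672 in cKO and 299 to 2367 in WT tumours. The brightest of them, S100a9 and S100a8, weigh most in these sums and did not pass (limma adjusted p = 0.258 and 0.097). Csf3r, called higher, and Elane, called lower, had means below the background level in both groups. Of 8 T and NK cell markers, 2 were called higher and 2 lower, with sums of 253 to 272 in cKO and 234 to 258 in WT tumours. Means of 2 of the 8 lay below the background level in both groups. The shares of macrophage markers (33.3% and 16.7%) and of T and NK cell markers (25% and 25%) were near those of all genes. With the pair term, the counts higher and lower were 1 and 2 for keratinocyte, 7 and 0 for fibroblast and 6 and 0 for endothelial markers. They were 3 and 0 for macrophage, 1 and 0 for neutrophil and 2 and 1 for T and NK cell markers.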

How the data were processed

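Total RNA was extracted with TRIzol, and 25 ng was amplified over 17 cycles before 8 µg of cDNA was labelled with biotin, per the labels' protocols. What the authors deposited is 1 log2 value for each probe set and array, made with RMA per the submitters' processing notes, in which neither its version nor a later adjustment is named. Groups and replicate numbers came from the sample titles. The members and gene lists were chosen with earlier results of these data known. The 104 array controls were left out, and the fit to 45037 probe sets used limma 3.58.1 under R 4.3.3 (functions lmFit and eBayes, no covariate, two-sided, Benjamini-Hochberg over all probe sets, threshold 0.05), with no filter. Differences are cKO minus WT. The fit was also run with a term for each pair of neighbouring arrays, so that its error was the spread within pairs. Background was the upper quartile of 23 nonspecific controls; without detection calls, levels below it have no fold. Besides the members, Ehmt2 and CYP1 genes, up to 3 genes of each list with the smallest p were named, and the 3 probe sets most like Ahr, Nfe2l2 and Nqo1. Gene symbols came from the platform annotation, of which 0 changed against GRCm38.p6. Both groups have arrays numbered 2, 6, 8 and 9, but the labels tie these numbers to no mouse, litter or day. The number of arrays limits the precision. Alternatives were median centring, quantile normalization, filters on dim probe sets, other feature sets, a trended robust prior, array weights, replicate blocks, the pair term, stricter thresholds and leaving out each array. Figures were drawn with matplotlib 3.10.9.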

Additional observations from a re-analysis of the deposited data

Results flagged for a closer look

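The Tkt value of cKO replicate 2 (10.51) lay apart from those of the other cKO tumours, which ranged from 10.25 to 10.34. It was the single such case in 74 groups of values, each the cKO or the WT arrays of 1 named probe set, and chance alone sets apart about 1 in 20 groups.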

How the results depend on the processing

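Of the 27 alternatives, the direction of every member probe set but those of Hmox1 and Gclm was kept in all that held it. Hmox1 turned to -0.0012 after median centring, and Gclm turned to 0.16 after quantile normalization with and without the pair term and to 0.13 with the fixed replicate block. Leaving out single arrays gave -0.14 to 0.12 for Hmox1 and -0.10 to 0.10 for Gclm. The main fit called 21565 probe sets. Fewer were called with the pair term (12169, and 11295 after quantile normalization), with a fold of at least 1.5 (2927), and, by construction, with fewer features: 13551 of those with 1 symbol, 9936 without the dimmer probe sets (under the 50th percentile) and 7830 by the brightest probe set per gene. Leaving out single arrays gave 19362 to 20914. Member probe sets called higher numbered 2 after quantile normalization and 4 with array weights, whose estimation stopped before full convergence, and those called lower numbered 0 with the pair term after quantile normalization and 3 by the brightest probe set per gene. The cause was not tested. Leaving out single arrays gave 1 to 2 higher (2 without WT replicate 6 or 8 and without cKO replicate 8 or 9) and 5 to 6 lower. Same-numbered arrays of the groups had correlations of deviations of -0.283 to 0.0536, and in 0 of 4 cases was the own number the best match. The mirroring of neighbouring arrays shapes these deviations, so the correlations cannot show whether same-numbered arrays share more than a number. The replicate block as a fixed term, on 8 arrays, called 8955 probe sets, of which 0 members were higher and 1 lower; as a random block it called 21092. Among the pathway lists, leaving out WT replicate 2 or 9 added 1 higher gene of Nrf2 turnover, and leaving out WT replicate 8 gave 2 higher genes of glutathione and thioredoxin.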
